A study of Mus musculus with 27 samples.

Results

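Docosahexaenoic acid (DHA) is the long-chain polyunsaturated fatty acid in which photoreceptor membranes are richest. Followed here through development of the mouse retina were 8 genes that make, import, activate or retain it or related acids. They are Elovl2, Elovl4, Elovl5, Fads1, Fads2, Acsl6, Mfsd2a and Adipor1, selected by gene symbol from the 38168 features of the expression table, in which each of them is listed once. Whole retinas of wild-type C57BL/6J mice were profiled by RNA-seq in 27 libraries, with 3 at embryonic day 14 (E14), 3 at E17, 4 at postnatal day 1 (P1), 3 at P6, 4 at P15, 4 at P28 and 6 at P60. The labels name no treatment or genetic alteration. Libraries were made from pooled retinas, except that 4 of the 6 at P60 came from single mice and the others from pools of 3 mice. Which P60 libraries were pools is not stated. Libraries up to P1 held both sexes and later ones were from males, so that sex and the difference between P1 and P6 cannot be told apart. The same holds for embryonic against mature retina and for every other comparison of ages up to P1 with later ones. The p-values given here measure the spread between these libraries.

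DHA is built from shorter dietary precursors by alternating desaturation, which adds a double bond, and elongation, which adds carbons at the acyl end. Fads2 encodes the desaturase of the first step and Fads1 the desaturase of a later one, while Elovl5 and Elovl2 encode elongases for the earlier and later parts of the chain, and a last round of shortening takes place in peroxisomes. In the retina Elovl4 extends long-chain polyunsaturated acids further into very-long-chain ones that photoreceptors hold in their outer segments. Preformed DHA also enters from blood, carried as lysophosphatidylcholine by the transporter Mfsd2a, and is kept in the tissue through coupling to coenzyme A by Acsl6 and through the membrane protein Adipor1, whose loss in mice depletes retinal DHA.

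Levels are given in CPM, the read counts of a feature scaled to a common library total. The reads counted in features summed to 7076646 to 11330762 per library (median 7968785), so that 1 counted read was worth 0.0882 to 0.141 CPM. These totals were recovered from the CPM values and are not the sequencing depth, for which the paper gives a larger number of reads. The 7 genes other than Mfsd2a had at least 125 reads in every library, whereas Mfsd2a had 1 to 21. The tissue label was checked against marker genes: 13 rod markers summed to 35.1 to 41.1 CPM at E14 and to 32508 to 37579 CPM at P60, and 12 markers of the retinal pigment epithelium, a neighboring layer, summed to 9.71 to 118 CPM over all libraries. The P60 libraries were not uniform, and replicates 1, 2 and 6 had a higher mean Pearson r across features with the P28 libraries (0.984, 0.981 and 0.975) than with the other P60 libraries (0.965, 0.962 and 0.973). In whole tissue, fewer cells of a type and less RNA per cell cannot be told apart.

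In the mouse genome build GRCm38 the genes lie on 6 chromosomes, and only Fads2 and Fads1 are near each other. Fads2 spans chr19:10062765-10101746 on the minus strand (39.0 kb) and Fads1 spans chr19:10182888-10196877 on the plus strand (14.0 kb), with 81.1 kb between them. Elovl2 is at chr13:41182381-41220405 on the minus strand, Elovl4 at chr9:83778692-83806277 on the minus strand and Elovl5 at chr9:77917364-77984519 on the plus strand. Mfsd2a is at chr4:122946850-122961188 on the minus strand, Adipor1 at chr1:134415378-134433351 on the plus strand and Acsl6 at chr11:54303798-54364756 on the plus strand. Acsl6 shares 202 exon bases, 2.0% of its exons, with the antisense gene Gm12224, and since a strand setting of the counting is not given in the sources used here, reads of that stretch cannot be assigned to one of the pair. No other member shares exon bases with another annotated gene.

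Promoters were read from RefSeq windows of 250 bases before and 50 from each start site (GRCm38.p6), which held 7 of the 8 genes with 11 start sites. The bases just before the start site are printed 5′ to 3′ for a gene of each developmental pattern: Elovl2 with its peak at P6, Elovl4 and Adipor1, which were high in mature retina, and Fads2, which was high in the embryo. Capitals mark matches that lie wholly before the start, GGGCGG (a GC box) and CCAAT on either strand.
Elovl2, chr13:41220404-41220533, minus strand: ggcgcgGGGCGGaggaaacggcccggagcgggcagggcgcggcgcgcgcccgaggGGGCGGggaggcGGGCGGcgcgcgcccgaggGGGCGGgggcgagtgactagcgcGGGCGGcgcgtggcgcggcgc
Elovl4, chr9:83806306-83806435, minus strand: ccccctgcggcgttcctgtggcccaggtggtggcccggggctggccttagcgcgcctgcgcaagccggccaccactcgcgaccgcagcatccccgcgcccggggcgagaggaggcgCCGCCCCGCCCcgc
Adipor1, chr1:134415248-134415377, plus strand: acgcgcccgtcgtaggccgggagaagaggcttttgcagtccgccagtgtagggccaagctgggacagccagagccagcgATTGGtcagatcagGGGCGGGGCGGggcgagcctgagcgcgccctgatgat
Fads2, chr19:10101504-10101703, minus strand: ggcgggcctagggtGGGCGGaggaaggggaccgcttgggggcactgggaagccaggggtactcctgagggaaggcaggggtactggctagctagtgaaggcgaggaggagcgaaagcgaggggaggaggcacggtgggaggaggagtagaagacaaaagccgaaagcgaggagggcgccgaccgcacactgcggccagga

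The promoter windows of the genes differed in GC content, though each lay above the median of all windows. The lowest was Elovl5 with 57.7%, and 35.5% of all windows were at least as high. Acsl6 had 58% and 60.3% at its start sites 1 and 3, with 5 and 1 CpG dinucleotides, and Mfsd2a had 60.3%. Elovl2 has 2 start sites in these windows. The window of the printed one had a GC content of 84.7% and 56 CpG dinucleotides, and 0.158% of all 32851 windows had a GC content at least as high, against a median of 52.7%. The window of the other start site had a GC content of 76.7% (2.67% of windows) and 45 CpG dinucleotides, with no GGGCGG. The printed one held GGGCGG 5 times, at positions -124, -75, -63, -44 and -21 from the start. Over the 11 windows of the genes, GGGCGG was found in 8 (35.7% of all windows hold it), CCAAT in 6 (37.4%), the E-box CACGTG in 2 (7.15%) and TGCTGA, the core of the element bound by the rod factor Nrl and its Maf relatives, in 2 (19.5%). TAATCC, which the photoreceptor homeodomain factor Crx can bind, was in none of the 11 (7.06% of all windows). Letters were searched on both strands, and a match describes the sequence only.

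The 8 genes followed different courses, and their sum would hide them. Between embryonic retina (E14 and E17, 6 libraries) and mature retina (P15, P28 and P60, 14 libraries), Elovl4, Adipor1 and Acsl6 rose 6.40-fold, 5.90-fold and 3.70-fold, and the synthesis genes Elovl5, Fads1 and Fads2 fell to 0.309, 0.344 and 0.277 of their embryonic level. Elovl2 stood at similar levels in embryonic and mature retina and had its high point between them, at P6. Mfsd2a was near the limit of detection at every age.

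Counted against all features, 6 of the 8 genes were called for mature against embryonic retina by limma, with thresholds of 0.05 for the adjusted p and 1 for the log2 difference, 3 of them higher and 3 lower. Of the 31760 features tested, 31% passed both thresholds, 14.9% as higher and 16.1% as lower. At the adjusted p alone 7 of the 8 genes passed, 3 higher and 4 lower, where 75.4% of all features did (35% higher and 40.4% lower). The libraries of embryonic and mature retina did not overlap for 6 of the 8 genes, against 40.4% of all features tested. The median log2 fold change of the 8 was -0.29 and that of all features -0.06. Without the P60 libraries the same 6 genes were called, with log2 fold changes of 2.701 for Elovl4, 2.42 for Adipor1, 1.85 for Acsl6, -1.57 for Elovl5, -1.59 for Fads1 and -1.86 for Fads2. Over the 7 ages each of the 8 genes varied (adjusted p of 0.00097 for Mfsd2a and at most 6.9e-16 for the others, limma F-test), as did 83% of all features.

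**Figure D1:**
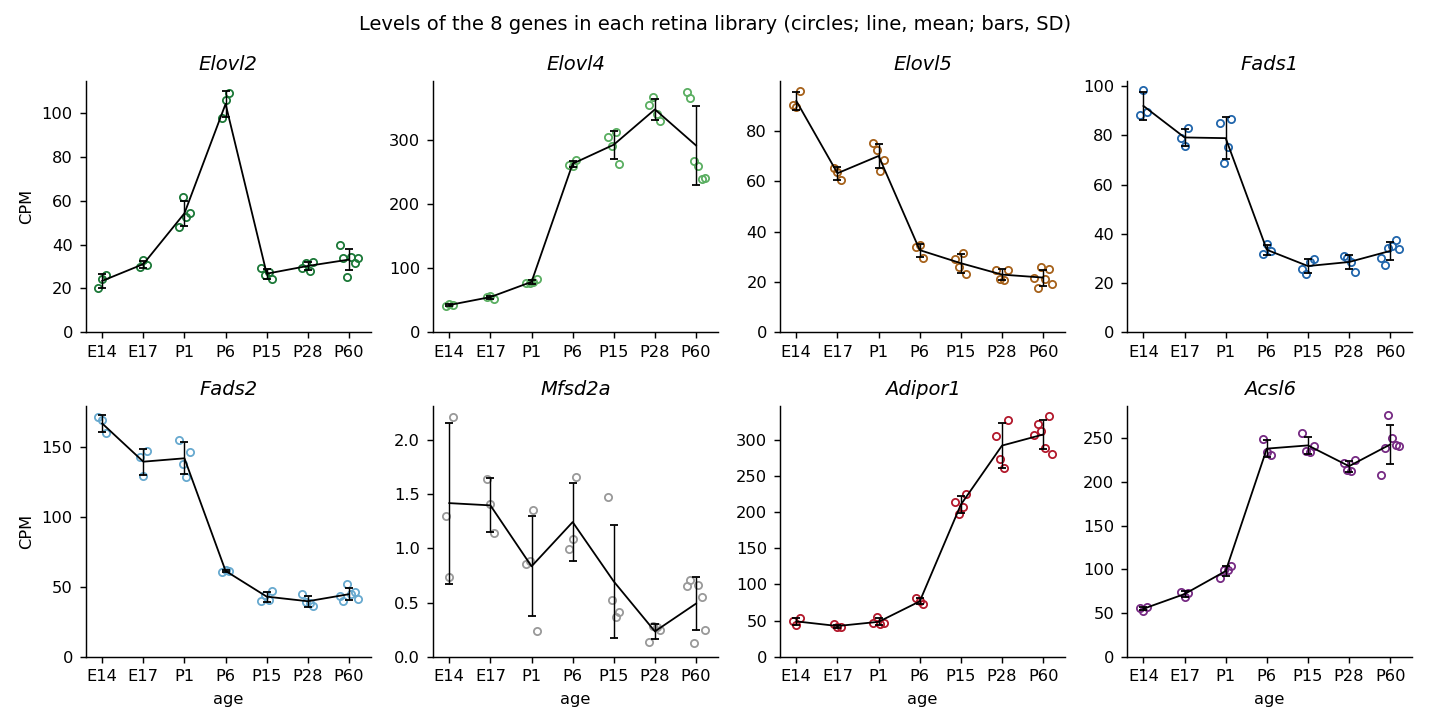
Levels of the 8 genes (CPM, y axis from 0, own scale per panel) at the 7 ages (x axis), with a circle for each of 27 libraries, a line through the means and bars for the SD. Elovl2 peaks at P6 (104 CPM), Elovl4 and Acsl6 step up between P1 and P6, Adipor1 climbs between P6 and P28, and Elovl5, Fads1 and Fads2 step down between P1 and P6.

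Elovl2, the elongase of the later steps, peaked at P6 among the ages sampled. Its level was 20.01, 24.4 and 25.9 CPM at E14, 29.6, 32.7 and 30.9 CPM at E17, and 48.0, 61.8, 52.8 and 54.7 CPM at P1. At P6 it was 97.6, 106 and 109 CPM, the highest of any age, and at P15 it was 29.2, 25.9, 27.6 and 24.1 CPM. Every P6 library therefore lay above every library of the other ages, and P15 was back in the range of E14 to E17. It was 29.4, 31.5, 28.1 and 31.9 CPM at P28 and 25.3 to 39.6 CPM at P60 (median 34.0).

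In limma the rise of Elovl2 took place in steps of 0.40 ± 0.12 (log2, SE) between E14 and E17 (adjusted p = 0.033), 0.78 ± 0.12 from E17 to P1 (adjusted p = 1.4e-05) and 0.93 ± 0.12 from P1 to P6 (adjusted p = 7.6e-08). It then fell by 1.93 ± 0.12 from P6 to P15 (adjusted p = 2.1e-14), to 0.256 of its P6 level. The first of these steps no longer passed the adjusted p when any 1 of E14 replicates 1 and 2 or the 3 E17 replicates was left out (adjusted p up to 0.23). The other steps still passed with any library left out. Ordered by mean, the ages ran P6, P1, P60, E17, P28, P15 and E14, with P6 and P1 each apart from their lower neighbor and the neighbors from P60 down overlapping. Mature and embryonic means were 30.0 and 27.3 CPM, a difference of 0.14 ± 0.07 on the log2 scale that did not pass (adjusted p = 0.085), and that did pass with median-of-ratios scaling (0.22, adjusted p = 0.0055) and in edgeR (0.25, adjusted p = 0.0031).

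Elovl4, which makes the very-long-chain acids and whose mutations cause a dominant macular dystrophy in people, rose with a large step in the first postnatal week. It measured 40.8, 44.5 and 41.9 CPM at E14, 54.9, 57.2 and 52.4 CPM at E17, and 76.9, 76.4, 77.9 and 83.04 CPM at P1. At P6 it had reached 262, 259 and 268 CPM, a 3.35-fold step with no overlap of libraries. It was 306, 290, 313 and 263 CPM at P15, 355, 367, 342 and 329 CPM at P28 and 240 to 376 CPM at P60 (median 264). Most of the rise was thus complete by P6.

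The step of Elovl4 between P1 and P6 was 1.73 ± 0.11 on the log2 scale in limma (adjusted p = 2.9e-14), and the step from E17 to P1 was 0.51 ± 0.11 (adjusted p = 0.002). From E14 to E17 it rose by 0.36 ± 0.12 (adjusted p = 0.045). That rise did not pass with median-of-ratios scaling (adjusted p = 0.07), in edgeR (adjusted p = 0.057) or without any 1 of 20 of the 27 libraries. From P28 to P60 it fell by 0.28 ± 0.09 (adjusted p = 0.048), with the 2 age groups overlapping. At P60, replicates 1 and 2 had 376 and 366 CPM and the other 4 had 240 to 267 CPM, so that the former lay at the level of P28 and the latter near P6. As 4 of the P60 libraries were from single mice and it is not stated which, the part of library type in this split was not tested. Among the 27 fits that left out a library, the fall from P28 to P60 passed only without P15 replicate 4 or P60 replicate 1 or 2. It did not pass in edgeR (-0.20, adjusted p = 0.13). The order of ages for Elovl4 was P28, P15, P60, P6, P1, E17 and E14, and the neighbors P15, P60 and P6 overlapped.

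Elovl5, the elongase of the earlier steps, declined with age. It was 90.2, 89.7 and 96.0 CPM at E14, 65.3, 63.9 and 60.5 CPM at E17, and 75.3, 72.6, 64.1 and 68.4 CPM at P1. By P6 it was 33.8, 34.5 and 29.6 CPM, below every earlier library. Later ages were lower still, with 23.1 to 31.6 CPM at P15, 20.8 to 24.9 CPM at P28 and 17.6 to 25.7 CPM at P60, and these neighbors overlapped. Its drop between E14 and E17 was significant in limma (log2 fold change -0.53 ± 0.12, adjusted p = 0.0032), as was that between P1 and P6 (-1.08 ± 0.12, adjusted p = 4.5e-09). The difference between mature and embryonic retina was -1.64 ± 0.08 (adjusted p = 4.8e-19).

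Fads2 and Fads1, the desaturases, fell together at the same step. Fads2 was 171, 169 and 160 CPM at E14, 143, 129 and 147 CPM at E17, and 155, 138, 128 and 146 CPM at P1. At P6 it was 60.6, 62.1 and 61.4 CPM, less than any library before. It was 39.6 to 47.3 CPM at P15, 36.1 to 45.0 CPM at P28 and 40.1 to 51.9 CPM at P60, all below P6. Between P1 and P6 the log2 fold change was -1.19 ± 0.09 (adjusted p = 2.2e-12, limma), and Fads2 dropped by another 0.51 ± 0.09 between P6 and P15 (adjusted p = 5.2e-05). The log2 fold change of mature over embryonic retina was -1.82 ± 0.06 (adjusted p = 3.9e-23).

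Fads1 was 88.1, 98.3 and 89.4 CPM at E14, 78.7, 75.7 and 82.9 CPM at E17, and 85.0, 68.6, 75.1 and 86.7 CPM at P1. It then measured 31.8, 35.8 and 32.8 CPM at P6, again below every earlier library. From then on it was 25.7, 23.6, 28.4 and 29.8 CPM at P15, 24.5 to 30.8 CPM at P28 and 27.3 to 37.5 CPM at P60 (median 34.0), and in the order P6, P60, P28 and P15 each age overlapped the next. Between P1 and P6 it fell by 1.21 ± 0.11 in limma (adjusted p = 8.3e-11), which is 82.9% of its whole change from E14 to P60 on the log2 scale. A further drop of 0.31 ± 0.11 from P6 to P15 passed (adjusted p = 0.027) but was lost with median-of-ratios scaling (adjusted p = 0.13), in edgeR (adjusted p = 0.12) and without P6 replicate 2 or 3 or P15 replicate 1 or 2 (adjusted p up to 0.12).

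Acsl6, the acyl-CoA synthetase that prefers DHA, rose early and then held a plateau. It was 55.4, 53.0 and 56.5 CPM at E14, 74.3, 68.3 and 72.8 CPM at E17, and 89.9, 99.7, 99.3 and 104 CPM at P1. At P6 it was 248.9, 235 and 231 CPM, above all of these. It stayed at 235 to 256 CPM at P15, 212 to 225 CPM at P28 and 208 to 276 CPM at P60 (median 242). In limma its steps were 0.38 ± 0.08 between E14 and E17 (adjusted p = 0.0009), 0.44 ± 0.07 between E17 and P1 (adjusted p = 7.3e-05) and 1.27 ± 0.07 between P1 and P6 (adjusted p = 2.5e-15). No later step passed, and in the order P60, P15, P6, P28, P1, E17 and E14 the first 3 ages overlapped as neighbors. Mature retina was 1.88 ± 0.05 above embryonic retina (adjusted p = 5.3e-26).

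Mfsd2a, the lysophosphatidylcholine transporter of blood vessel walls and pigment epithelium, was scarce in whole retina. It had 13, 7 and 21 reads at E14, 16, 16 and 11 at E17, 7, 7, 12 and 2 at P1, and 7, 10 and 12 at P6. At P15 it had 11, 4, 3 and 3 reads, at P28 it had 1, 2, 2 and 2, and at P60 it had 5, 5, 1, 6, 4 and 2. The 4 libraries at P28 were thus all at or under 3 reads, the level that a count of 0 still allows, and no fold is given for that age. Means were 1.41 CPM in embryonic and 0.473 CPM in mature retina, a log2 fold change on the log2(CPM + 1) scale of -0.72 ± 0.15 (adjusted p = 6e-05, limma), of -1.53 with a smaller pseudocount of 0.1 and of -1.58 in edgeR. No step between neighboring ages passed, with counting error large at these depths.

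Markers of the cells that hold Mfsd2a elsewhere differed widely in level. The 13 vascular endothelial markers summed to 456 to 478 CPM at E14 and to 224 to 270 CPM at P60, most of it from Slc2a1, a glucose transporter (293 CPM on average at E14 and 86.8 at P60), and Kdr, a growth factor receptor (167 and 119 CPM). Cldn5, a tight junction gene of endothelium, averaged 2.05 CPM at E14, 5.75 at P6 and 0.570 at P28, and Emcn and Slco1a4 were at 0 in all 3 E14 libraries. The 12 markers of the retinal pigment epithelium summed to 14.8 to 21.4 CPM at E14, 73.3 to 118 CPM at P15 and 25.2 to 94.5 CPM at P60, with Mlana at 0 in all 4 libraries of P15. Their part in the Mfsd2a level was not tested.

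Adipor1, the adiponectin receptor needed for DHA retention, rose later than Elovl4 and Acsl6. No step up to P1 passed, with 49.5, 43.3 and 53.9 CPM at E14, 44.9, 41.4 and 41.2 CPM at E17, and 46.0, 55.6, 45.0 and 46.6 CPM at P1. It was 80.7, 76.7 and 72.3 CPM at P6 and 214, 196, 206 and 224 CPM at P15. These sets did not overlap, and neither did P15 with P28, where it was 305, 273, 261 and 328 CPM. At P60 it was 280 to 332 CPM (median 309), overlapping P28.

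The steps of Adipor1 on the log2 scale in limma were 0.66 ± 0.09 between P1 and P6 (adjusted p = 3.5e-07), 1.44 ± 0.09 from P6 to P15 (adjusted p = 3.4e-14) and 0.47 ± 0.08 from P15 to P28 (adjusted p = 0.00069). It was the only one of the 8 genes that passed from P15 to P28 in this fit. Its mature level was 2.52 ± 0.06 above the embryonic one (adjusted p = 2.9e-27). P6 to P15 made up 55.0% of its change from E14 to P60, whereas for Elovl4 and Acsl6 the step from P1 to P6 made up 63.5% and 60.01%.

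**Figure D2:**
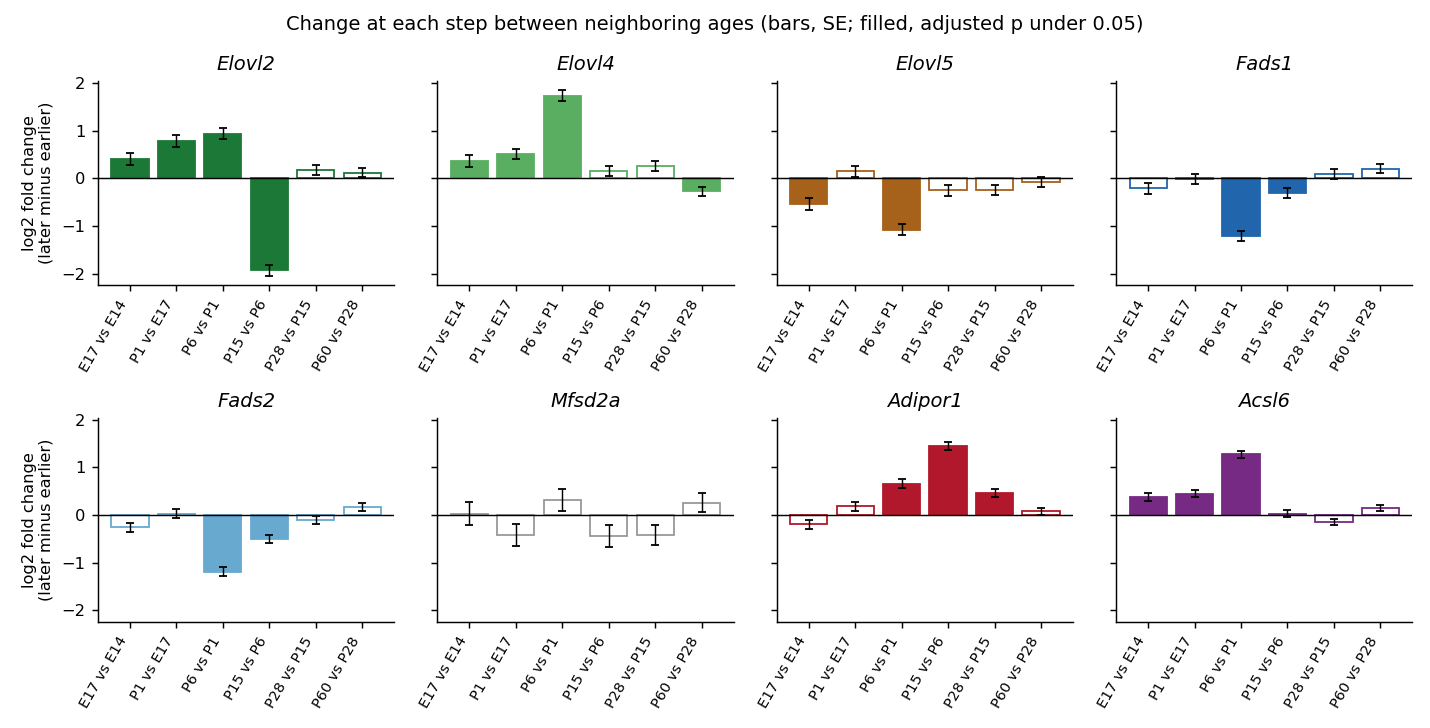
Log2 fold change of each gene (y axis, later minus earlier age) at the 6 steps between neighboring ages (x axis), with bars for the SE and filled columns for an adjusted p under 0.05 in limma. Filled columns gather at P6 against P1 for 7 of the 8 genes, Elovl2 reverses at P15 against P6 (-1.93), and Mfsd2a has no filled column.

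Changes concentrated in the first postnatal week. From P1 to P6, 7 of the 8 genes passed an adjusted p under 0.05 (limma; 38.3% of all features), 4 higher (18%) and 3 lower (20.4%), and 5 of them also passed the fold threshold (13%), with Elovl4 and Acsl6 higher (6.3%) and Elovl5, Fads1 and Fads2 lower (6.74%). The libraries of P1 and P6 did not overlap for 7 of the 8 (47.9%). From P6 to P15, 4 genes passed the adjusted p (33.4%), with Adipor1 higher (14.4%) and Elovl2, Fads1 and Fads2 lower (19%), and the thresholds together left Adipor1 and Elovl2 (8.05%, 4.74% as higher and 3.31% as lower). Libraries did not overlap for 4 of the 8 at that step (42.7%).

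Up to P1 and after P15 none of the 8 genes passed both thresholds. From E14 to E17, 4 genes passed the adjusted p (10.6%), with Elovl2, Elovl4 and Acsl6 higher (7.56%) and Elovl5 lower (3.02%), and from E17 to P1, 3 passed (9.21%), with Elovl2, Elovl4 and Acsl6 higher (5.77%) and 0 lower (3.43%). Adipor1 alone, higher, passed from P15 to P28 (2.72%, 1.14% as higher and 1.58% as lower), and Elovl4 alone, lower, from P28 to P60 (12.9%, 4.8% as higher and 8.11% as lower). At these 4 steps 0 of the 8 genes passed both thresholds in limma and 0 in edgeR. Of all features, 3.6% passed both from E14 to E17 (2.9% higher and 0.702% lower), 1.84% from E17 to P1 (1.23% and 0.614%), 0.384% from P15 to P28 (0.164% and 0.22%) and 0.453% from P28 to P60 (0.0756% and 0.378%). Libraries did not overlap for 6 genes from E14 to E17 (36.8% of all features), for 4 from E17 to P1 (25.8%), for 4 from P15 to P28 (11.5%) and for 0 from P28 to P60 (4.13%). The 4 from P15 to P28 were Elovl4 and Adipor1, higher, and Acsl6 and Mfsd2a, lower. For Mfsd2a this rests on 3 to 11 reads at P15 against 1 to 2 at P28, near the limit of detection.

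Set against each other per length, the genes changed places. Levels in CPM per kb of exons allow an approximate comparison, with merged lengths of all annotated exons from 2.25 kb for Mfsd2a to 9.91 kb for Acsl6. The transcripts expressed can be shorter than these lengths. The library ranges below do not include that uncertainty. Fads2 was first at E14 (50.6 ± 1.79 CPM per kb, SD, n = 3), ahead of Elovl5 (26.1 ± 0.994) and Fads1 (19.1 ± 1.16), and it stayed first at E17 and P1. Elovl4 was first from P6 on, with 87.0 ± 1.54 CPM per kb at P6 (n = 3) and 115 ± 5.39 at P28 (n = 4), and no library of another member reached its range at these ages.

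At P6 Elovl2 was second with 26.3 ± 1.503 CPM per kb, and its 3 libraries (24.6 to 27.5) overlapped those of Acsl6 (23.3 to 25.1). From P15 on the order was Elovl4, Adipor1, Acsl6 and Fads2, each apart from the next by the range of its libraries. Elovl2, Elovl5 and Fads1 shared the low places, between 4.90 and 9.99 CPM per kb at P15 to P60, and neighbors among them overlapped except Elovl2 over Elovl5 at P28 (7.10 to 8.05 against 5.92 to 7.07). Mfsd2a was last at every age, at 0.104 to 0.629 CPM per kb on average.

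**Figure D3:**
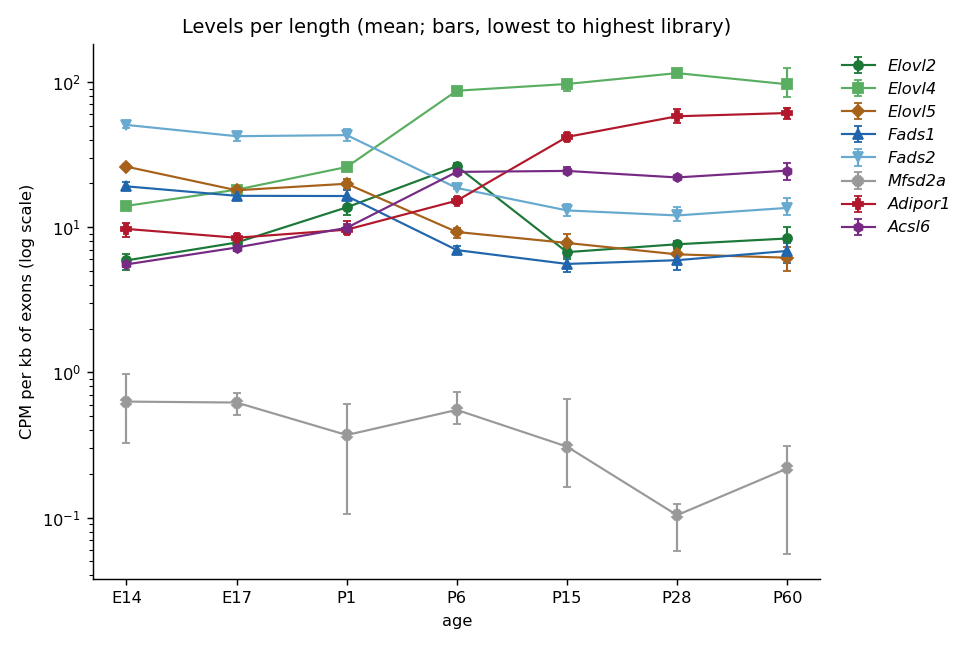
Mean level per length (y axis, CPM per kb of exons, log scale) of the 8 genes at the 7 ages (x axis), with bars from the lowest to the highest library. Fads2 leads up to P1 (43.0 CPM per kb) and Elovl4 from P6 on (87.0 CPM per kb), while Mfsd2a stays below 1 CPM per kb.

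Ratios within a library do not depend on its scaling, and 3 of them describe the balance of the enzymes. The ratio of Elovl4 to Elovl2 in CPM was 1.62 to 2.04 at E14, 1.24 to 1.604 at P1 and 2.45 to 2.68 at P6, and then 10.5 to 11.3 at P15 and 7.10 to 10.8 at P60. In mature retina it was higher by 2.47 on the log2 scale than in embryonic retina, with no overlap of the 14 and 6 libraries (adjusted p = 3.9e-05, exact permutation test, two-sided, adjusted over 3 ratios, where 2.6e-05 is the smallest unadjusted p it can give). The jump thus fell between P6 and P15, where Elovl2 dropped.

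The ratio of Elovl2 to Elovl5 was 0.222 to 0.272 at E14, rose to 2.89 to 3.68 at P6 and was 0.873 to 1.04 at P15 and 0.985 to 1.93 at P60. Mature and embryonic retina differed by 1.82 on the log2 scale, without overlap (adjusted p = 3.9e-05, exact permutation test). The peak at P6 is where Elovl2 was highest and Elovl5 had stepped down. The ratio of Fads1 to Fads2 moved little in comparison, from 0.515 to 0.582 at E14 to 0.655 to 0.820 at P60. Its difference of 0.32 on the log2 scale passed (adjusted p = 0.00028, exact permutation test), and the 2 sets of libraries overlapped.

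**Figure D4:**
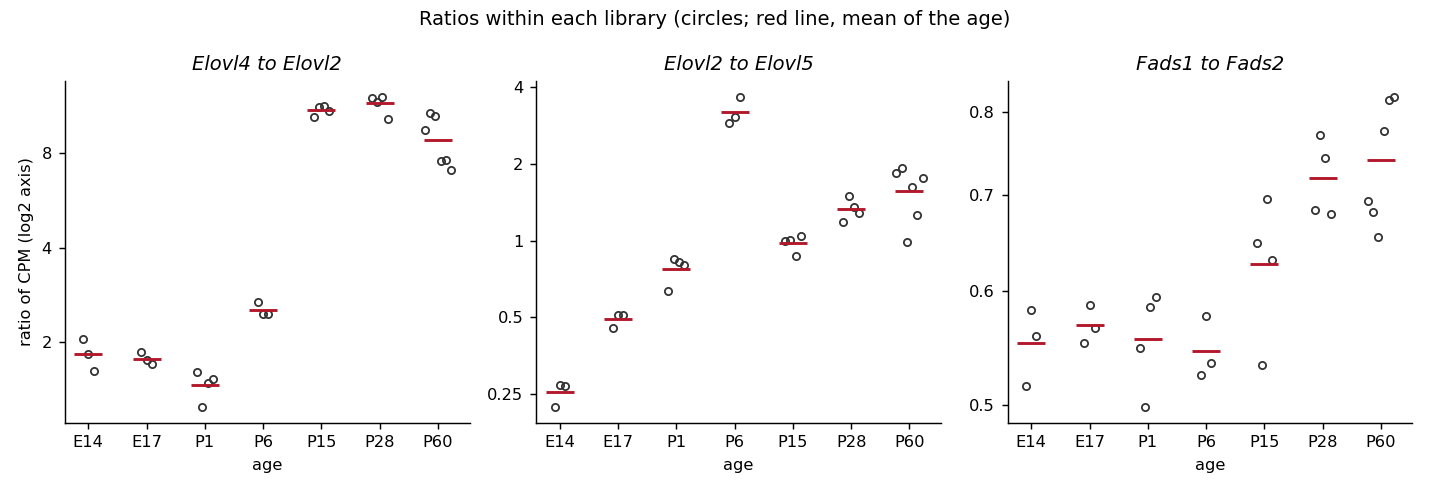
Ratio of CPM within each library (y axis, log2 axis) for 3 pairs of genes at the 7 ages (x axis), with circles for libraries and a red line for the mean of an age. Elovl4 to Elovl2 jumps between P6 (mean 2.53) and P15 (mean 10.98), Elovl2 to Elovl5 peaks at P6 (mean 3.21), and Fads1 to Fads2 stays between 0.498 and 0.820.

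Cell type markers moved over the same ages. The 13 rod markers summed to 419 to 451 CPM at P1, 7848 to 9379 CPM at P6 and 25213 to 26488 CPM at P15. As shares of their P60 mean these were 1.29%, 24.6% and 74.9%, and Adipor1 stood at 15.7%, 24.9% and 68.5% of its own P60 mean. Acsl6 was at 98.0% of its highest mean and Elovl4 at 75.6% of its highest mean already at P6. The 9 progenitor markers, cell cycle genes among them, summed to 4749 to 5136 CPM at P1, 552 to 619 CPM at P6 and 149 to 186 CPM at P60. Elovl5, Fads1 and Fads2 fell at the same step as the progenitor markers but kept 35.5%, 36.4% and 36.8% of their E14 means at P6, where the markers kept 9.44%.

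For Elovl2 at P6 the sum of the 10 Müller glia markers was at its lowest, 646 to 683 CPM. It was already 852 to 871 CPM at E14, and 915 to 951 CPM at P1 and 1522 to 1724 CPM at P15. Single markers need not follow this sum, and 1 of the 10 was at or under 3 reads in all E14 libraries but 0 at P6. The 8 bipolar cell markers summed to 167 to 172 CPM at P1, 827 to 1131 CPM at P6 and 1783 to 1853 CPM at P15. Neither of these lists peaked with Elovl2. The 8 microglia markers and the 7 listed blood markers did have their highest mean at P6, microglia with 27.4 to 27.6 CPM (means of 18.3 CPM at P1 and 22.0 CPM at P15) and blood with 39.8 to 50.6 CPM (means of 13.7 CPM at P1 and 30.6 CPM at P15). None of the 13 rod or 9 progenitor markers was at 0 in all libraries of P1 or P6. The part of cell composition in the levels of the 8 genes was not tested.

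**Figure D5:**
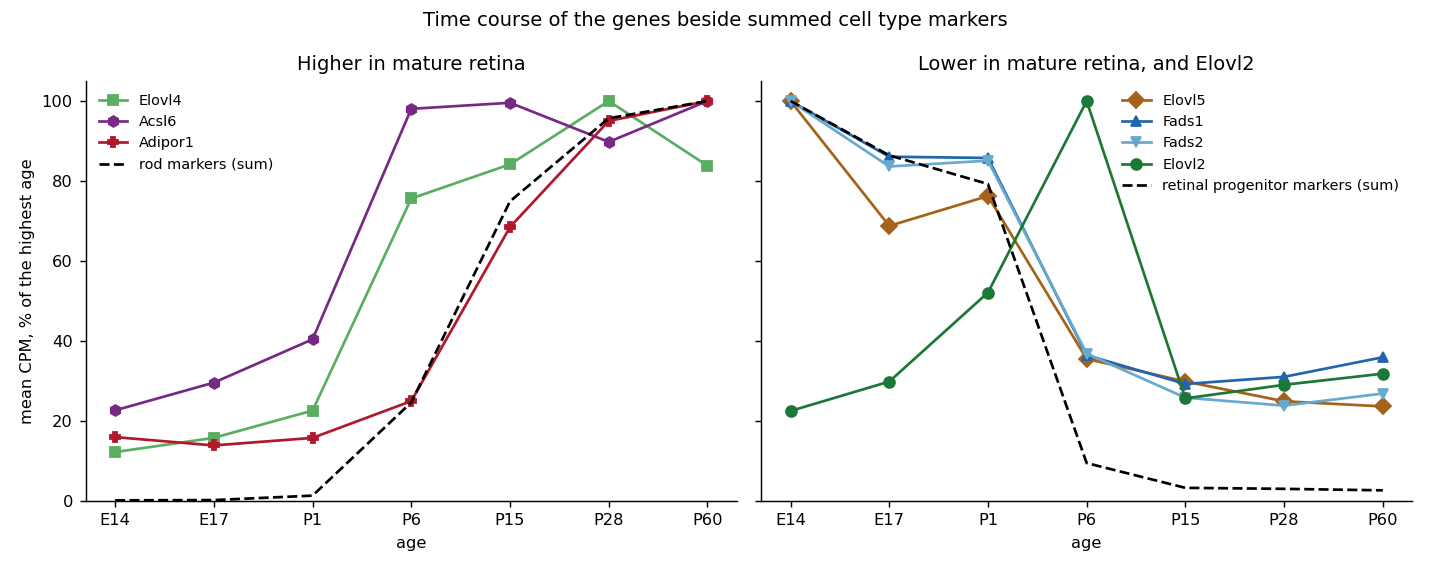
Mean CPM as a percent of the highest age (y axis) at the 7 ages (x axis) for genes higher in mature retina beside summed rod markers (left) and for genes lower in mature retina and Elovl2 beside summed progenitor markers (right). Acsl6 (98.0%) and Elovl4 (75.6%) are far above the rod markers (24.6%) at P6 and Adipor1 (24.9%) lies beside them.

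Other genes of the pathway changed in both directions between embryonic and mature retina. Of 13 tested genes of the elongation cycle and other elongases and desaturases, 5 rose and 7 fell at an adjusted p under 0.05 in limma (median log2 fold change -0.32, against -0.06 for all features). Over all features 35% were higher and 40.4% lower by the same rule, and the counts of this and the following lists are to be read against these shares. Scd2, a stearoyl-CoA desaturase for monounsaturated acids, fell by 2.004 ± 0.05, from 938 CPM at E14 to 234 CPM at P60, and Scd1 by 1.42 ± 0.14. Fads6 rose by 2.01 ± 0.12, from 3.40 to 22.0 CPM, and Elovl7 by 1.31 ± 0.15, from 0.448 to 3.64 CPM.

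Among 15 genes for fatty acid transport and acyl-CoA synthesis, 7 rose and 6 fell (median 0.23). Fabp12, a fatty acid binding protein gene, rose by 6.57 ± 0.09, from 0.137 CPM at E14 to 149 CPM at P60, and Acsl1, another acyl-CoA synthetase, by 3.07 ± 0.07, from 6.08 to 87.3 CPM. The binding protein genes Fabp7 and Fabp5 fell by 3.22 ± 0.14 and 3.10 ± 0.10, Fabp7 after a high of 95.7 CPM at P1. Of 22 genes for phospholipid acylation and release, 11 rose and 8 fell (median 0.33). Cds1, a CDP-diacylglycerol synthase, rose by 5.71 ± 0.08, from 2.01 to 213 CPM, and the phospholipase gene Pla2g5 by 3.95 ± 0.10, while the acyltransferase genes Mboat2 and Agpat4 fell by 0.91 ± 0.09 and 0.85 ± 0.13.

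Peroxisomal shortening, the last step to DHA, had 8 of 14 genes higher and 4 lower (median 0.33, beside 35% higher and 40.4% lower over all features), with most changes under 1 on the log2 scale. The thiolase gene Acaa1a rose by 1.33 ± 0.12 and the thioesterase gene Acot8 by 0.88 ± 0.11, and the bifunctional enzyme gene Hsd17b4 fell by 0.76 ± 0.08. Of 12 lipid-sensing regulators, 5 rose and 3 fell (median 0.14). Ppara, a nuclear receptor for fatty acids, rose by 4.60 ± 0.09, from 0.174 CPM at E14 to 18.2 at P6 and 27.6 at P60, and Ppard by 1.201 ± 0.09. Rxrg, a retinoid X receptor, fell by 1.64 ± 0.16. Srebf2, a regulator of sterol synthesis, fell by 1.34 ± 0.07, with 188 CPM at P1 and 65.7 CPM at P6. Among 11 relatives of Adipor1 and its partners, 5 rose and 3 fell (median 0.13), with log2 fold changes of 4.24 ± 0.11 for Paqr9, 1.78 ± 0.07 for Paqr4, -1.18 ± 0.16 for Paqr5 and -0.46 ± 0.10 for the adiponectin-binding cadherin Cdh13.

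For each gene the 3 features with the most similar course were listed from 11000 features with a Gene ID and a mean of at least 10 CPM, by Pearson r of log2(CPM + 1) over the 27 libraries. The points share the age of the libraries, so r describes the shape of the course and nothing more. For Elovl2 the closest were Setdb2-phf11c (r = 0.959), Setdb2 (0.945) and Arhgap31 (0.908). The first of these overlaps Setdb2, so the pair can share reads, and all 3 had their highest mean at P6, Arhgap31 with 424 CPM. For Elovl4 they included Ccdc126 (0.993) and Ric3 (0.992), and for Acsl6 Llgl2 (0.995), Cdhr1 (0.994) and Dmxl2 (0.993). For Adipor1 they were Tmem136 (0.995), Impact (0.993) and Nim1k (0.993).

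The genes closest to the desaturases and Elovl5 were high in the embryo and low from P6 on. For Fads1 they were Dnmt1 (r = 0.987), Rrm1 (0.986) and Mcm2 (0.986), and for Fads2 Hist2h2ac (0.991), Lmnb1 (0.991) and Rad54l (0.991). For Elovl5 they were Msn (0.978), Gm5577 (0.977) and Ckap2 (0.976). Several of these fell further than the member they resembled: Mcm2, a replication helicase subunit, averaged 145 CPM at E14 and 3.78 CPM at P15, against 91.9 and 26.9 CPM for Fads1. For Mfsd2a no feature came close (highest r 0.758, Zfp512). The reads of Mfsd2a were few, and their part in this was not tested. None of the features found was another of the 8 genes.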

How the data were processed

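RNA was extracted from whole retina, libraries were prepared with a total RNA kit and single-end reads were collected on an Illumina HiSeq instrument. The authors aligned them with STAR to GRCm38 (mm10 in the submitters' processing notes) and deposited CPM values per feature. The annotation is not given in the sources used here. Values were whole multiples of 1 read for 100% of entries (tolerance 0.1 read), and reads were recovered from them. In E14 replicate 1 a read is worth close to a power of 10, which makes recovery hard to judge, so edgeR was also run without it.

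The 31760 features that reached 1 CPM in 3 or more libraries entered limma 3.58.1 (R 4.3.3, mean-variance trend) on log2(CPM + 1), with age as the only factor and all 27 libraries. Tests were two-sided, and p-values were adjusted by Benjamini-Hochberg over these features. This scale understates the change of low genes. A called gene had an adjusted p below 0.05 and differed by 1 or more on the log2 scale, and genes were described as risen or fallen at the adjusted p alone. Fold values are ratios of mean CPM, with ages weighted equally. Ratios within libraries were tested by exact permutation of the mean log2 difference, with 1 added to each CPM. Exon lengths and positions came from GENCODE for GRCm38, promoters from RefSeq. Python 3.11.15 with numpy 2.4.6, pandas 2.3.3, scipy 1.17.1 and matplotlib 3.10.9 was used, and edgeR 4.0.16 with TMM scaling as an alternative. Tests were tried on simulated data. Other alternatives were a pseudocount of 0.1, no filter or a mean of at least 10 CPM, median-of-ratios scaling, a replicate block, the compared ages only, no minimum fold, entries of a symbol summed, and each library left out, and leaving out P60 was added after the data were seen.

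The members, lists and markers were chosen with earlier results of these data known. All 8 members were described, and from each pathway list at most the 2 largest rises and 2 largest falls were named. Some genes that these rules select are not reported here. Intervals and floors cover counting error only. Other data of the study were not analysed here.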

Additional observations from a re-analysis of the deposited data

Results flagged for a closer look

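In the 32 sets of 4 to 6 libraries formed by a gene and an age, 2 single libraries lay far from the rest of their age, and chance alone gives about 1 in 20 such sets. Mfsd2a was 1.47 CPM in P15 replicate 1, from 11 reads, and 0.365 to 0.527 CPM in the other 3 libraries of P15. Adipor1 was 55.6 CPM in P1 replicate 2 and 45.0 to 46.6 CPM in the other 3 libraries of P1.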

How the results depend on the processing

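The number of the 8 genes called in each comparison stayed within 1.5 times its value in every fit that left out a library or P60, under the other scaling, filters, block, pseudocount and tool. In edgeR and with a pseudocount of 0.1, Mfsd2a joined the 6 called between embryonic and mature retina. Without a minimum fold change the counts became 4 for E17 against E14, 3 for P1 against E17, 4 for P15 against P6, 1 for P28 against P15 and 1 for P60 against P28.

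Some small differences that did not pass changed sign. For E17 to P1, Fads2 was -0.0058 with median-of-ratios scaling, -0.0045 in edgeR and -0.0045 in edgeR without E14 replicate 1, and it ran from -0.031 to 0.069 with a library left out, as Fads1 did from -0.058 to 0.054. For E14 to E17, Mfsd2a was -0.0025, -0.044 and -0.11 under those settings and ran from -0.19 to 0.26. For P6 to P15, Acsl6 ran from -0.0051 to 0.054.

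Leaving out 1 library brought some single genes under an adjusted p of 0.05. Between embryonic and mature retina, Elovl2 passed without E14 replicate 3 (adjusted p = 0.047, limma) or P60 replicate 3 (0.025). From P6 to P15, Elovl5 passed without P15 replicate 3 (0.047) and Mfsd2a without P15 replicate 1 (0.033). From P28 to P60, Fads1 passed without P60 replicate 2 (0.036) and Acsl6 without P60 replicate 1 (0.017). Without P60, Elovl4 passed from P15 to P28 (adjusted p = 0.0066), Elovl5 from P6 to P15 (0.032) and Fads2 from E14 to E17 (0.03).

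Same-numbered libraries of different ages did not deviate together (r of deviations -0.129 to 0.167, and 3 of 27 libraries correlated best with their own number), so the numbers were not read as pairs. The replicate block left Elovl4 from P28 to P60 at -0.15 (adjusted p = 0.27). EdgeR moved the median of all features between embryonic and mature retina by 0.10, with no change of direction for a called gene. From P28 to P60, 144 features were called (16.7% higher), 119 with median-of-ratios scaling (31.9% higher), 420 in edgeR (43.8% higher) and 78 with the block, and 48 to 465 with a library left out.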

Other observations

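Between neighboring ages the other genes of the pathway moved as follows, at an adjusted p under 0.05 in limma. From P1 to P6, where 18% of all features rose and 20.4% fell, 9 of 22 phospholipid genes rose and 1 fell, and 7 of 15 genes for transport and acyl-CoA synthesis rose and 5 fell. At that step 2 of 13 elongation and desaturation genes rose and 4 fell, 5 of 14 peroxisomal genes rose and 1 fell, 4 of 12 lipid-sensing regulators rose and 3 fell, and 3 of 11 relatives of Adipor1 rose and 1 fell. From P6 to P15, where 14.4% of all features rose and 19% fell, 5 of the elongation and desaturation genes rose and 1 fell, 6 phospholipid genes rose and 5 fell, and 3 transport genes rose and 4 fell. At this later step 2 peroxisomal genes rose and 2 fell, 2 regulators rose and 4 fell, and 5 relatives of Adipor1 rose and 2 fell. From P15 to P28, where 1.14% of all features rose and 1.58% fell, the 6 lists together had 2 genes higher and 2 lower.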
